A study of Homo sapiens with 32 samples.

Results

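Of 1397 windows of 1 Mb with enough control peaks to judge, 45 held at most 0.4 times as many m6A peaks in CFL1 and METTL3 knockout cells as in control cells. The windows were fixed, ran from each full megabase of hg19, and were taken from chromosomes 1 to 22, where 2706 of them held any peak. A peak here is 1 call in 1 library, and a window's count is the number of peaks that start in it, scaled to 100000 peaks of that library. A window could be judged if the mean of its 2 control counts was 20 or more, and it was chosen if the mean of the 4 knockout libraries was at most 0.4 times that control mean. Since these counts chose the windows, the counts below are a description and carry no test. The 45 windows held 9793 of the peaks in the 3 deposited lists.

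The cells were PANC-1, an established line of human pancreatic ductal adenocarcinoma. The groups were cells labelled as knockouts of CFL1, cells labelled as knockouts of METTL3, and control cells, with 2 libraries each of RNA bound by an antibody to m6A. All 3 used total RNA, with no drug treatment named in their labels. The libraries are called CFL1 knockout 3 and 5, METTL3 knockout 3 and 5, and control 1 and 2, after the numbers in the peak names. For the knockouts these numbers differ from the labels' replicates, and the names also carry the letters si, which no source used here explains. Whether each group is 1 clone or a pool, and whether the libraries came from separate cultures, is likewise not stated. Neither the cell line nor the loss of CFL1 and METTL3 was checked, since peak lists do not measure expression. The lists held 72728 and 66295 peaks for CFL1 knockout 3 and 5, 63859 and 64952 for METTL3 knockout 3 and 5, and 77603 and 79467 for control 1 and 2.

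N6-methyladenosine (m6A) is the most common internal modification of messenger RNA. It is placed while RNA is being transcribed, by a complex whose catalytic subunit is METTL3, and it can mark introns and enhancer RNA as well as mature transcripts. CFL1 is cofilin 1, which severs actin filaments and also carries actin into the nucleus. A peak list records where antibody-bound RNA was called as enriched, and does not measure how much of the RNA is methylated. RNA levels of the input were not examined, and in bulk RNA fewer cells making a transcript cannot be told apart from less of it per cell. The genes in the windows were not annotated here, and no sequence is shown, because a genome of the build used by the lists was not used here.

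Added over the 45 windows, CFL1 knockout 3 and 5 had 1149 and 1241 peaks per 100000, METTL3 knockout 3 and 5 had 1391 and 1409, and control 1 and 2 had 4206 and 3859. The groups did not overlap, and the 2 knockouts lay close to each other. The means were 1195 ± 65.0 for the CFL1 knockout, 1400 ± 12.8 for the METTL3 knockout and 4033 ± 245 for control (SD, n = 2 each). The CFL1 knockout thus had 0.296 times the control level, and the METTL3 knockout 0.347 times. In the 1352 other windows above the floor the same ratios were 0.970 and 0.939. Both ratios share the 2 control libraries.

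The chosen windows were the low end of a wide distribution. Over all 1397 windows the knockout to control ratio had a median of 0.951 and quartiles of 0.714 and 1.25. The rule took 3.22% of them. Within the 45 the ratio ran from 0.172 to 0.393 with a median of 0.334. At the opposite end, 5 windows held at least 2.5 times as many peaks in the knockouts. All 4 knockout libraries lay below both control libraries in each of the 45 windows, as they did in 37.1% of all 1397 windows. In 43 of the 45 the lower control library had at least 2 times as many peaks as the highest knockout library. A ratio of at most 0.4 largely sets such a gap in advance, and its share over all 1397 windows is not given. The control libraries differed by at most 1.32-fold within the 45.

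**Figure D1:**
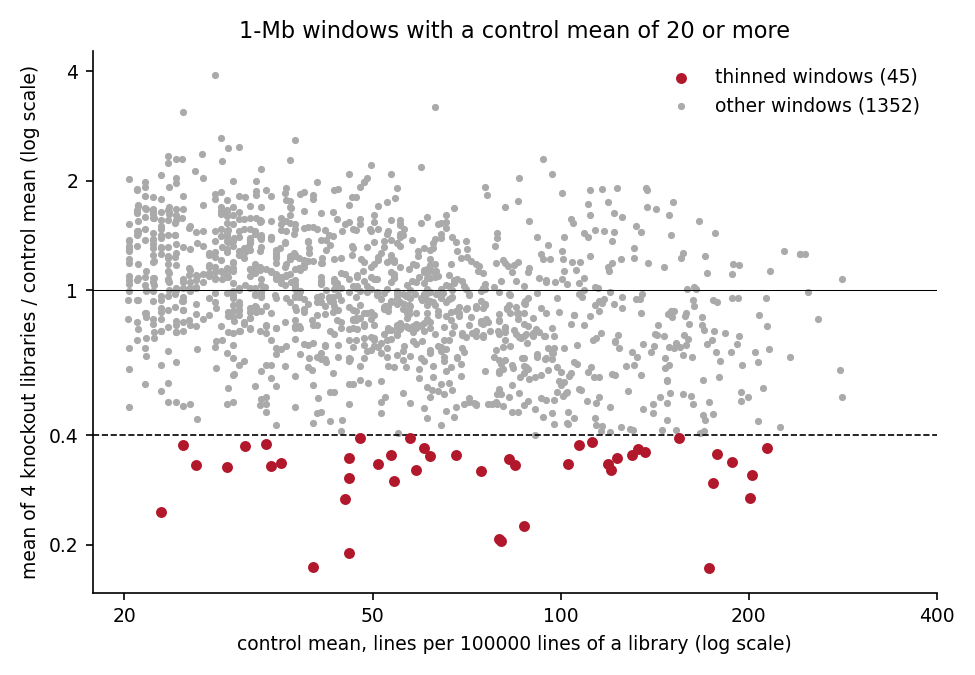
Each point is a 1-Mb window, with its control mean in peaks per 100000 on the x axis and the knockout to control ratio on the y axis, both on log scales; the dashed line marks 0.4. The 45 thinned windows lie at ratios of 0.172 to 0.393 and span control means of 22.9 to 214.

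The windows were spread over many chromosomes. They lay on 17 chromosomes, with 6 each on chromosomes 2 and 8, and 4 each on chromosomes 1, 10 and 15. Relative to the windows that could be judged, chromosome 8 had the largest share, 6 of 57 (10.5%), followed by chromosome 15 with 4 of 54 (7.41%). Chromosomes 6, 12, 16, 18 and 22 had none, out of 88, 70, 49, 27 and 32 windows in that order. Among the chosen windows 3 pairs adjoined each other, from 203 to 205 Mb on chromosome 2, from 69 to 71 Mb on chromosome 10 and from 130 to 132 Mb on chromosome 8. Whether chosen windows adjoined each other more or less often than their share of all windows would give was not tested.

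The window from 57 to 58 Mb on chromosome 17 had the lowest ratio, 0.172. It held 17 and 17 peaks for CFL1 knockout 3 and 5, 24 and 21 for METTL3 knockout 3 and 5, and 144 and 127 for control 1 and 2. Per 100000 peaks these were 23.4, 25.6, 37.6, 32.3, 186 and 160 in the same order, so every knockout library was far below either control library. It was also among the 10 chosen windows richest in control peaks. The strongest control peak there, at 57774700 to 57775224 with a −log10 q of 302 in control 2, was overlapped in all 4 knockout libraries.

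The next lowest ratio, 0.174, was at 176 to 177 Mb on chromosome 3. CFL1 knockout 3 and 5 had 8 and 5 peaks there, METTL3 knockout 3 and 5 had 3 and 3, and control 1 and 2 had 32 and 31. Here the METTL3 knockout was the lower of the knockouts, at 4.66 ± 0.0559 per 100000 against 9.27 ± 2.45 in the CFL1 knockout and 40.1 in control. Few peaks stand behind each knockout value, so the order of the knockouts in single windows such as this rests on small counts. The strongest control peak, at 176742459 to 176743472 (−log10 q 109), was again overlapped in all 4 knockout libraries.

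At 48 to 49 Mb on chromosome 11 (ratio 0.189) there were 5.50 and 9.05 peaks per 100000 for CFL1 knockout 3 and 5, 11.0 and 9.24 for METTL3 knockout 3 and 5, and 51.5 and 40.3 for control 1 and 2. At 49 to 50 Mb on chromosome 17 (ratio 0.204) the values were 6.87 and 10.6 for CFL1 knockout 3 and 5, 26.6 and 21.6 for METTL3 knockout 3 and 5, and 86.3 and 74.2 for control 1 and 2. This window held the lowest CFL1 knockout ratio of the 45, 0.109, while the METTL3 knockout was at 0.30. It was also the only named window whose strongest control peak, at 49041406 to 49041968 (−log10 q 176), was overlapped in none of the 4 knockout libraries, the nearest knockout peak being 20837 bp away.

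The 6 windows that follow in order of ratio were at 65 Mb on chromosome 10 (0.207), 50 Mb on chromosome 15 (0.225), 22 Mb on chromosome 19 (0.246), 27 Mb on chromosome 21 (0.266), 9 Mb on chromosome 11 (0.268) and 39 Mb on chromosome 4 (0.295). Those on chromosomes 11 and 4 were among the richest in control. At 9 to 10 Mb on chromosome 11, CFL1 knockout 3 and 5 had 50.9 and 43.7 peaks per 100000, METTL3 knockout 3 and 5 had 50.1 and 70.8, and control 1 and 2 had 209 and 194. At 39 to 40 Mb on chromosome 4 they were 38.5, 42.2, 59.5, 66.2, 187 and 164 in the same order. In both windows the knockout libraries stayed apart from control, with the METTL3 knockout mean above that of the CFL1 knockout. The window on chromosome 19 lies in the zinc finger gene clusters of that chromosome, by general knowledge of the chromosome and not by an annotation used here. It held 3, 6, 4, 2, 18 and 18 peaks in the same library order and was the poorest of the 45 in control.

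**Figure D2:**
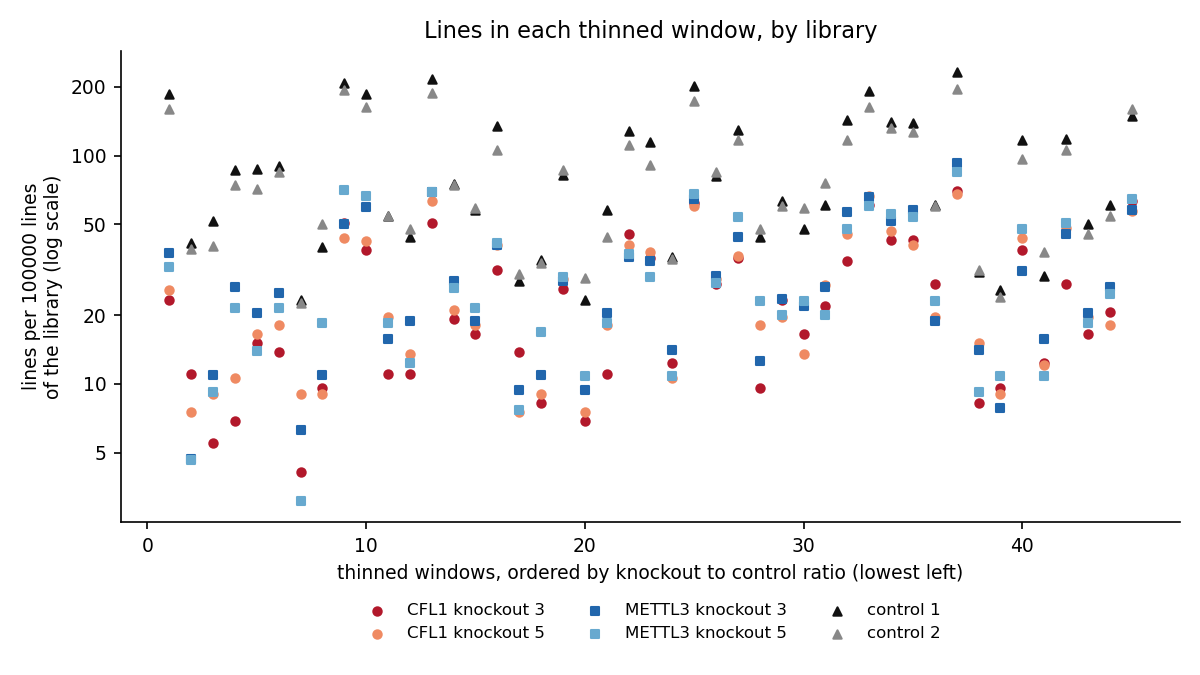
Peaks per 100000 peaks of the library (log scale) in each of the 45 thinned windows, ordered by knockout to control ratio, with 1 symbol per library. Both control libraries lie above all 4 knockout libraries in every window.

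Thinning was not limited to windows poor in peaks. The control mean of the 45 windows ran from 22.9 to 214, with a median of 74.5, against a median of 49.7 in the other windows above the floor. The control mean is part of the rule, as its floor and in its ratio, so this difference is a description and carries no test. The richest was at 44 to 45 Mb on chromosome 15, with 70.1 and 67.9 peaks per 100000 for CFL1 knockout 3 and 5, 92.4 and 84.7 for METTL3 knockout 3 and 5, and 232 and 196 for control 1 and 2. Next was 64 to 65 Mb on the same chromosome, with 50.9, 63.4, 68.9, 69.3, 216 and 189 in the same order. The other windows named for their control mean were at 28, 46 and 39 Mb on chromosome 1 and at 203 and 32 Mb on chromosome 2, with ratios of 0.338 to 0.393.

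The remaining 26 windows lay between those extremes. On chromosome 8 the ratios were 0.299 at 98 Mb, 0.304 at 66 Mb, 0.320 at 131 Mb, 0.332 at 130 Mb and 0.377 at 118 Mb. On chromosome 2 they were 0.321 at 42 Mb, 0.343 at 44 Mb, 0.351 at 153 Mb and 0.352 at 204 Mb. These 9 windows had control means of 26.1 to 121. Chromosomes 3 and 5 had 0.328 at 179 Mb and 0.368 at 31 Mb of chromosome 3, and 0.333 at 16 Mb, 0.334 at 138 Mb and 0.375 at 125 Mb of chromosome 5. On chromosome 10 they were 0.331 at 69 Mb, 0.374 at 18 Mb and 0.383 at 70 Mb, and on chromosome 7 they were 0.318 at 104 Mb and 0.346 at 40 Mb. The last 7 were at 113 Mb on chromosome 1 (0.377), 139 Mb on chromosome 4 (0.329), 36 Mb on chromosome 9 (0.353), 45 Mb on chromosome 13 (0.334), 35 Mb on chromosome 14 (0.345), 86 Mb on chromosome 15 (0.35) and 46 Mb on chromosome 20 (0.335). Of the 26, the window at 36 Mb on chromosome 9 was the richest, with 34.4 and 45.3 peaks per 100000 for CFL1 knockout 3 and 5, 56.4 and 47.7 for METTL3 knockout 3 and 5, and 143 and 117 for control 1 and 2.

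The threshold cut through a continuum. Just inside it were windows at 95 Mb on chromosome 13 (0.392), 128 Mb on chromosome 8 (0.392) and 39 Mb on chromosome 1 (0.393). Just outside were 132 Mb on chromosome 5 (0.401), 96 Mb on chromosome 10 (0.404) and 2 Mb on chromosome 17 (0.406). At 128 to 129 Mb on chromosome 8, where MYC, CCAT1 and part of PVT1 lie by general knowledge, the values were 20.6 and 18.1 for CFL1 knockout 3 and 5, 26.6 and 24.6 for METTL3 knockout 3 and 5, and 60.6 and 54.1 for control 1 and 2. This window had the highest METTL3 knockout ratio of the 45, 0.447.

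The shortfall in the number of peaks was in the classes with a −log10 q under 50. These are counts per class, and do not say whether the same peaks were kept. Among peaks with a −log10 q under 5, the 45 windows held 309 and 332 per 100000 for CFL1 knockout 3 and 5, 338 and 360 for METTL3 knockout 3 and 5, and 1573 and 1447 for control 1 and 2. The knockout to control ratio in this class was 0.222, and it was 0.207 between 5 and 10, 0.279 between 10 and 20, and 0.546 between 20 and 50. At 50 to 100 it was 1.13, with 113 and 131 for CFL1 knockout 3 and 5, 177 and 162 for METTL3 knockout 3 and 5, and 126 and 131 for control 1 and 2. At 100 and more it was 1.10, with 90.7, 145, 182, 179, 120 and 151 in the same order. In these 2 classes both METTL3 knockout libraries lay above both control libraries, while CFL1 knockout 3 lay below both and CFL1 knockout 5 lay close to or between them. The strongest class rests on 66 to 120 peaks per library.

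Outside the thinned windows the ratio was also higher among stronger peaks, over a narrower range. The knockout to control ratio was 0.737 under 5, 0.819 between 5 and 10, 1.03 between 10 and 20, 1.31 between 20 and 50, 1.43 between 50 and 100, and 1.23 at 100 and more. Each was above the ratio of the same class in the thinned windows. Relative to the other windows, the classes from 50 on were thus low in the thinned windows too. For the CFL1 knockout alone, the ratios at 50 to 100 and at 100 and more were 0.949 and 0.870 in the thinned windows, against 1.44 and 1.07. For the METTL3 knockout they were 1.32 and 1.33, against 1.42 and 1.40. Peaks with a −log10 q under 20 made up 64.8% and 59.5% of the thinned windows' peaks for CFL1 knockout 3 and 5, 54.8% and 57.5% for METTL3 knockout 3 and 5, and 83.5% and 81.6% for control 1 and 2. In the other windows these shares were 67.7%, 62.0%, 61.1%, 63.4%, 74.3% and 73.1% in the same order. The value −log10 q can vary with the read depth of a library, which is unknown here, and the part of depth in these differences was not tested.

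**Figure D3:**
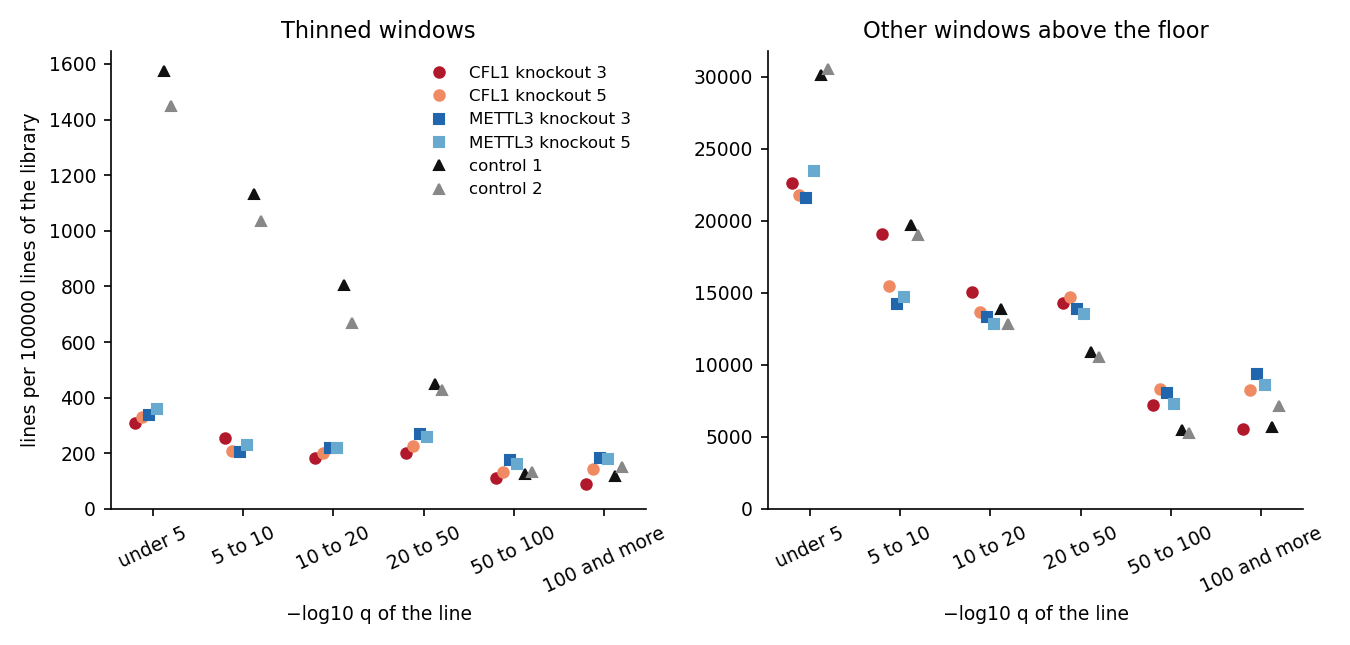
Peaks per 100000 peaks of the library in 6 classes of −log10 q, in the 45 thinned windows (left) and in the 1352 other windows above the floor (right), with 1 symbol per library and y axes of different range. In the thinned windows the control triangles stand far above the knockouts up to a −log10 q of 20 and meet them from 50 on.

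The typical knockout peak in the thinned windows was stronger than the typical control peak. The median −log10 q there was 10.3 and 13.7 for CFL1 knockout 3 and 5, 15.98 and 15.2 for METTL3 knockout 3 and 5, and 6.68 and 6.74 for control 1 and 2. Median fold enrichment, the authors' own value for a peak, was 4.21, 4.38, 4.11, 4.45, 3.93 and 3.73 in the same order. For both measures all knockout medians lay above both control medians, as they did in the other windows. Median widths were 306, 323, 358.5, 328, 300.5 and 311 bp, and here CFL1 knockout 3 lay between the control libraries. Control peaks were narrower and weaker in the thinned windows than in the other windows, where the median width was 334 and 343 bp and the median −log10 q 7.68 and 7.58 for control 1 and 2.

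Control peaks of the thinned windows rarely had a knockout peak at the same place. At least 1 knockout library overlapped 19.3% of the control 1 peaks (631 of 3264, exact 95% interval 17.99% to 20.7%) and 21.2% of the control 2 peaks (649 of 3067, 19.7% to 22.6%). In the other windows the shares were 47.0% and 48.6%. All 4 knockout libraries overlapped 10.4% and 11.2% of the peaks of control 1 and 2 in the thinned windows, against 28.3% and 28.1% elsewhere. The control libraries found each other's peaks about as often in both kinds of window: control 2 overlapped 69.4% of control 1 peaks in the thinned windows and 72.6% elsewhere, and control 1 overlapped 73.0% and 70.3% of control 2 peaks. These intervals take in counting error alone, and peaks near each other may share a transcript. Low overlap with knockout peaks follows from choosing windows with few of them, so these shares describe the choice and test nothing.

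Most of the strongest control peaks were kept here too, but fewer of those below a −log10 q of 100. Of control peaks with a −log10 q of 100 or more, 93.5% of 93 in control 1 and 96.7% of 120 in control 2 had a knockout peak in the thinned windows, against 98.8% and 98.3% in the other windows. Between 50 and 100 the shares were 74.5% and 66.3% in the thinned windows, against 91.0% and 89.0% elsewhere. Between 20 and 50 they were 38.2% and 42.8% in the thinned windows, against 69.6% and 70.9% elsewhere. Under 5 they were 9.66% and 10.2%, against 28.1% and 28.4%. For control 1 and 2, all 4 knockout libraries overlapped 88.2% and 86.7% of peaks at 100 or more, against 95.4% and 93.1% elsewhere. Of 19 windows named by rule, 17 had their strongest control peak overlapped in all 4 knockout libraries, with a −log10 q of 99.0 to 484. The highest was at 44096846 to 44097614 on chromosome 15. The exceptions were the window at 49 Mb on chromosome 17, described above, and that at 50 Mb on chromosome 15, whose strongest peak at 50999783 to 51000234 was overlapped in 2 knockout libraries.

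**Figure D4:**
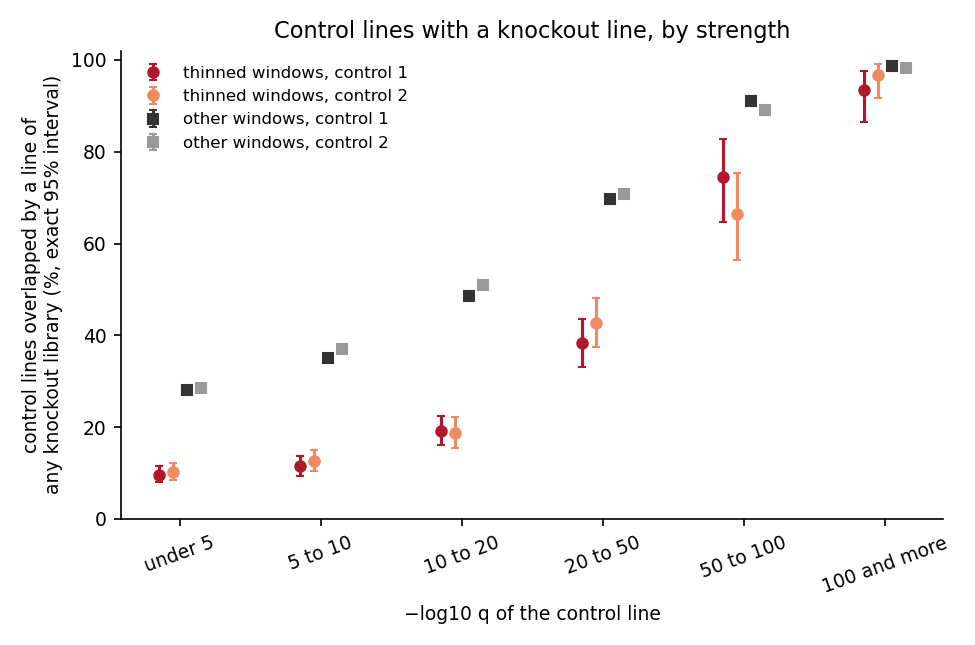
Share of control peaks overlapped by a peak of any knockout library, by −log10 q of the control peak, with exact 95% binomial intervals. The thinned windows (circles) lie below the other windows (squares) in every class, from 9.66% for control 1 under 5 to 96.7% for control 2 at 100 and more.

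Peaks absent from all 4 knockout libraries could still be strong. In the same 19 windows the strongest such control peak had a −log10 q between 26.4 and 185, with a median of 66.0; these peaks were picked after their values were seen. In 17 windows that peak was called in both control libraries. The strongest was at 57280566 to 57281291 on chromosome 17 (−log10 q 185, fold 7.65), with a knockout peak 592 bp away, the only 1 of the 19 within 1 kb. At 39501402 to 39501925 on chromosome 4 a peak with a −log10 q of 163 had its nearest knockout peak 18027 bp away. The median distance over the 19 was 10175 bp and the largest 66338 bp, at 48090683 to 48092066 on chromosome 11.

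Joined where they overlapped, control peaks formed 4001 regions in the thinned windows, of which 2175 were called in both control libraries. No knockout peak overlapped 82.0% of the 4001, against 57.1% of the 84832 regions of the other windows. Among regions of both control libraries these shares were 75.4% and 42.9%. Regions kept in both knockouts made up 12.3%, while 2.30% had a peak of the CFL1 knockout alone and 3.40% one of the METTL3 knockout alone. In the other windows these shares were 31.8%, 5.82% and 5.33%. The knockouts are read against the same control peaks, so their agreement is not a separate result. The shares of regions also follow from the counts that chose the windows.

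Most knockout peaks in the thinned windows lay on a control peak. Of the peaks in the thinned windows, 57.7% and 61.7% of CFL1 knockout 3 and 5 and 61.3% and 59.2% of METTL3 knockout 3 and 5 overlapped a control peak, against 45.8%, 52.0%, 54.4% and 53.4% in the other windows. The rule favours windows with many control peaks for their knockout peaks, and control peaks lay closer together there. The higher shares thus describe the choice and test nothing. Knockout peaks with no control peak numbered 354 and 315 for CFL1 knockout 3 and 5, and 344 and 373 for METTL3 knockout 3 and 5. Per 100000 peaks these were 487, 475, 539 and 574 in the 45 thinned windows, in the same order. In the 1352 other windows they were 45446, 39487, 36693 and 37463, so such peaks were also fewer per window in the thinned windows.

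The thinning reached most of a window's rich bins and was deepest where control peaks were densest. Of 196 bins of 100 kb with 10 or more control peaks inside the thinned windows, 137 (69.9%) were at or under a ratio of 0.4 and 7 (3.57%) were at or above 1. In the other windows 1057 of 5163 such bins (20.5%) were at or under 0.4, and over both kinds of window 22.3% were. Every such bin was at or under 0.4 in 17 of the 45 windows, and 6 windows held a bin at or above 1. These counts are given for the thinned windows alone. Since the bins are parts of windows chosen by the same counts, their low ratios describe the choice and test nothing. With the densest bin of each window chosen from control 1 alone, the knockout libraries had 0.153 to 0.217 times the control 2 level in those bins and 0.375 to 0.456 times in the rest of the window. In the other windows the same ratios were 0.676 to 0.686 and 1.04 to 1.10, so there too the densest bins had the lower ratios. Control 2 also helped to choose the windows.

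Knockout peaks stood far apart and control peaks close together in these windows. The median distance between the starts of neighbouring peaks was 16138 and 15157 bp for CFL1 knockout 3 and 5, 13947 and 14191 bp for METTL3 knockout 3 and 5, and 2329 and 2708.5 bp for control 1 and 2. Outside them it was 4557 to 6425 bp for the knockout libraries, and 3646 and 4166 bp for control 1 and 2. Distances follow the number of peaks in a window, which the rule used, and are given as a description.

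Some series of control regions had no knockout counterpart over long distances. The longest series in each window, in which no region was overlapped by any knockout peak, ran from 5 to 44 regions with a median of 21, and spanned a median of 74.8 kb. The longest series of the other windows had a median of 8 regions, from 1 to 55, and spanned a median of 47.6 kb. In 18 of the 45 windows (40%) the span held no knockout peak between its regions either, against 32.6% of the other windows. Since the windows were chosen for few knockout peaks, these values describe the choice and test nothing. The longest was at 64800864 to 64899317 on chromosome 15, where 44 regions, 24 of them in both control libraries, lay within 98.5 kb. Control 1 and 2 had 37 and 34 peaks there and the 4 knockout libraries none. At 203242712 to 203321506 on chromosome 2, 40 regions lay within 78.8 kb, with 1 peak of METTL3 knockout 5 between them. Control 1 and 2 had 34 and 31 peaks in that span. At 138943834 to 138997887 on chromosome 5, 40 regions lay within 54.1 kb, with 0 peaks in each knockout library against 38 and 28 for control 1 and 2. At 48010436 to 48153124 on chromosome 11, 38 regions lay within 143 kb, again with 0 knockout peaks against 33 and 28 in control. Other long series held knockout peaks between their regions. The 36 regions at 57939017 to 58000313 on chromosome 17 had 9 knockout peaks in their span, against 32 and 26 peaks for control 1 and 2. The shortest series, 5 regions, was at 18 to 19 Mb on chromosome 10, where 10 of 22 control regions had no knockout peak.

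**Figure D5:**
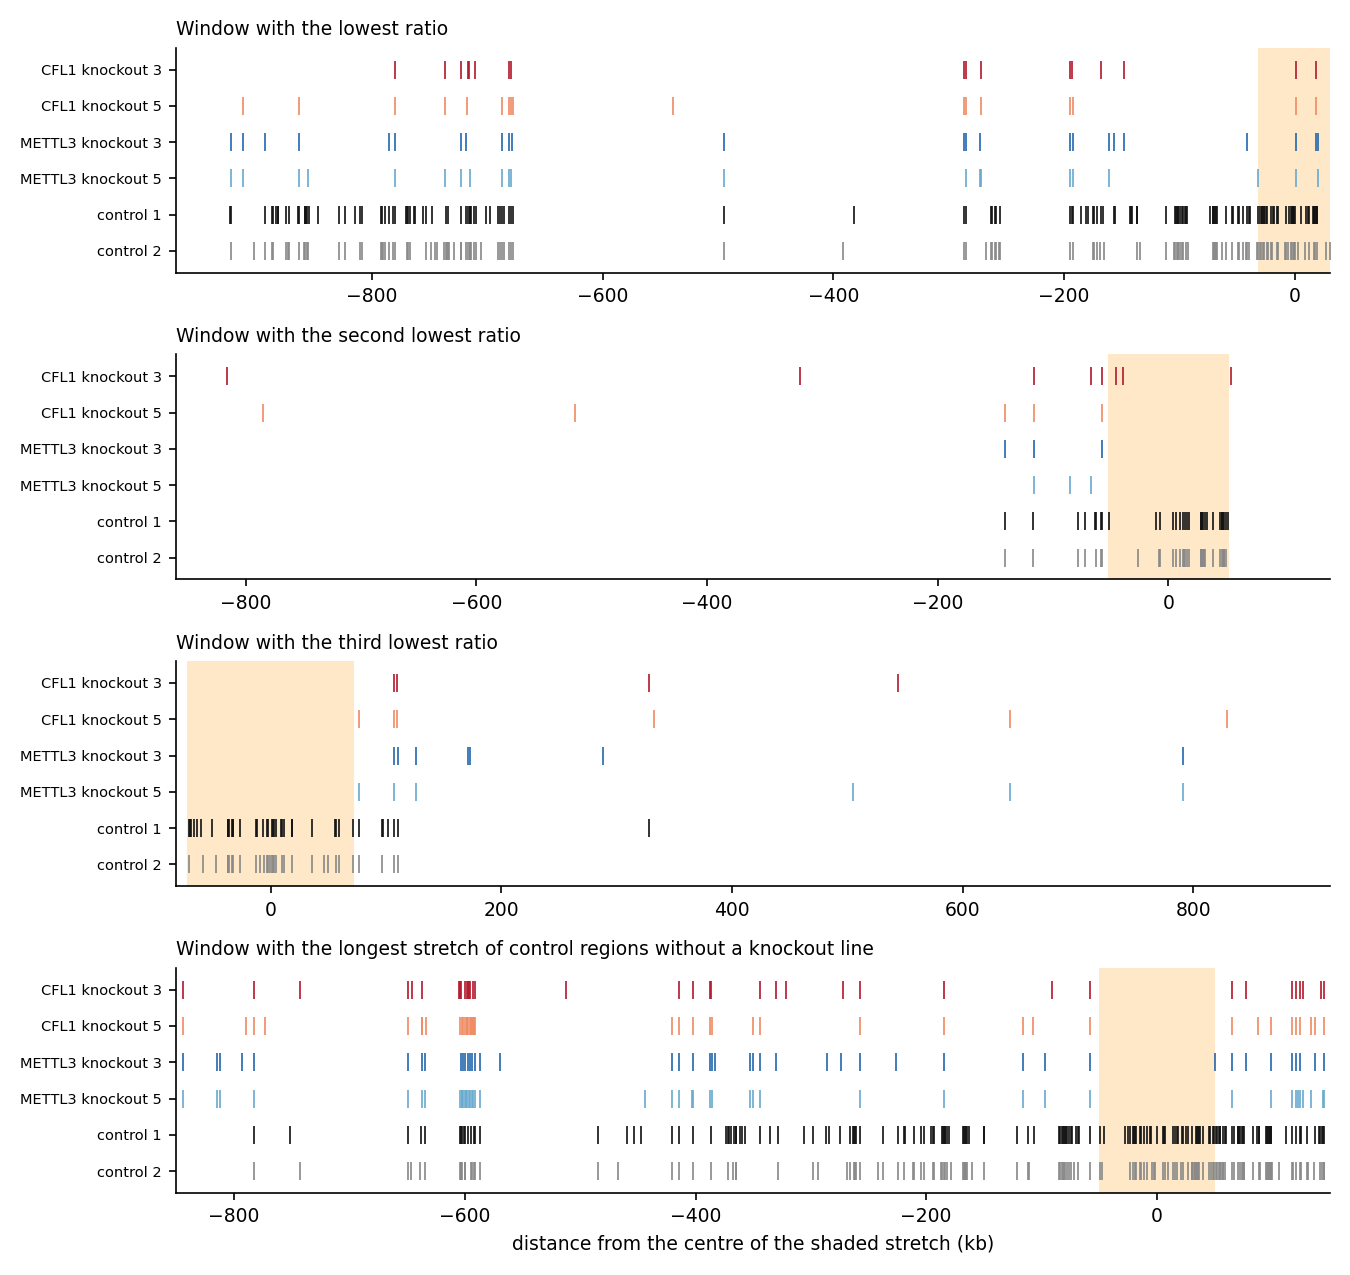
Positions of peaks (ticks) in 4 thinned windows, with 1 row per library and the x axis in kb from the centre of the shaded series of control regions without a knockout peak; the panels are the 3 windows with the lowest ratios and the window with the longest series. In the first and second panels the shaded spans hold 9 and 2 knockout peaks, which overlap none of the control regions. In the third panel the shaded 143 kb hold 33 and 28 control peaks and no knockout peak.

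Windows next to the chosen ones had higher ratios, as the rule sets when it leaves them out. The 50 adjoining windows above the floor that were not chosen had a median ratio of 0.897, from 0.440 to 1.496, and 70.0% of them were under 1, against 55.6% of all windows above the floor. At 2 and 3 Mb on either side the medians were 0.863 to 0.959.

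The numbers in the peak names follow the genome in each library and skip values, and are read here as calls numbered before some were removed. What removed them is not stated, and its part in the low knockout counts was not tested. Within the thinned windows the names then give at least 1615 and 1245 calls for CFL1 knockout 3 and 5, 1428 and 1369 for METTL3 knockout 3 and 5, and 3962 and 4007 for control 1 and 2. Skipped numbers at window edges could raise these to at most 1997, 1529, 1692, 1585, 4020 and 4088 in the same order. Relative to the highest number of each library, the least counts were 0.290 times control for the CFL1 knockout and 0.328 times for the METTL3 knockout, and the greatest counts 0.352 and 0.378 times. Of the least counts, 51.8% and 66.1% were listed for CFL1 knockout 3 and 5, 62.2% and 66.8% for METTL3 knockout 3 and 5, and 82.4% and 76.5% for control 1 and 2. Elsewhere these shares were 56.9%, 66.4%, 63.2%, 64.1%, 78.6% and 73.1%.

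The rule used the mean of the knockouts, so it left their difference open to a test. The CFL1 knockout held 0.854 times as many peaks in the 45 windows as the METTL3 knockout (1195 ± 65.0 against 1400 ± 12.8 per 100000, n = 2 each), a log2 ratio of -0.23. The libraries of the 2 knockouts did not overlap, but an exact two-sided permutation of 2 against 2 libraries gave p = 0.333, the smallest it allows. In the other windows the ratio was 1.03. The CFL1 knockout had the lower ratio in 34 of the 45 windows (75.6%), against 59.1% of the other windows and 59.6% of all. Both of its libraries lay below both METTL3 knockout libraries in 20 windows (44.4%), against 34.2% of the other windows and 34.5% of all. The opposite held in 3 windows (6.67%), at 176 Mb on chromosome 3, 138 Mb on chromosome 5 and 45 Mb on chromosome 13, against 24.9% of the other windows and 24.3% of all. At 138 to 139 Mb on chromosome 5 there were 45.4 and 40.7 peaks per 100000 for CFL1 knockout 3 and 5, 36.02 and 36.95 for METTL3 knockout 3 and 5, and 128 and 111 for control 1 and 2. Every CFL1 knockout mean was at or under 0.4 times control, as in 4.44% of all 1397 windows, while 37 METTL3 knockout means were, as in 3.36% of all. Both conditions held in the same 37 windows, 2.65% of all 1397. The rule takes in every window that meets both, so none of them could lie outside the 45.

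The choice was repeated without each library in turn. A left-out knockout library is still set against the control libraries that helped to choose the windows, so its ratio is only partly independent of the choice. Windows chosen without CFL1 knockout 3 numbered 44, and in them that library had 0.30 times the control level. Chosen without CFL1 knockout 5 there were 44 windows and the ratio was 0.307, without METTL3 knockout 3 there were 51 and 0.365, and without METTL3 knockout 5 there were 54 and 0.377. Over all windows above the floor the 4 libraries had 0.912 to 0.948 times the control level. Each left-out knockout library was below both control libraries in every window so chosen, and each left-out control library was above all 4 knockout libraries. A left-out control library is likewise set against the knockout libraries that helped to choose the windows. The separation thus follows largely from the choice, and its share over all windows is not given. Chosen without control 1 there were 46 windows, in which the knockouts averaged 1202 peaks per 100000, against 3867 in control 1 and 3657 in control 2. Chosen without control 2 there were 60, in which the knockouts averaged 1973, against 5308 in control 2 and 5965 in control 1.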

How the data were processed

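Per the submitters' processing notes, STAR, MACS2 and bedtools were used with hg19; their versions, settings and use of input were not found in the labels or files. The authors deposited 3 peak lists, whose names show that each joins the separately called peaks of 2 libraries. Of the deposited values per peak, its interval and summit, its fold enrichment (a ratio) and its −log10 q were used here. Read depth is unknown. Of 32 labelled samples, 20 were not analysed here. Windows, their rule and the classes of −log10 q were chosen with earlier results of these data known.

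Peaks were counted by start in windows of 1 Mb and scaled to 100000 peaks of the library, all chromosomes included. Overlap means at least 1 bp. Shares have exact 95% binomial intervals, for counting error only. Comparisons of libraries used exact permutation, whose smallest two-sided p is 0.333 for 2 against 2 libraries and 0.0667 for 4 against 2; the design had planned such tests of peak width, fold and −log10 q, which are given as descriptions, since they come from the contrast that chose the windows. Nothing says that libraries came from separate cultures, so the spread may be technical. Named windows are the 10 with the lowest ratio, the 10 with the highest control mean and the 3 nearest to 0.4 inside, which gave 19. Counting and overlap were tested on simulated data. Python 3.11.15, pandas 2.3.3 and numpy 2.4.6 were used.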

Additional observations from a re-analysis of the deposited data

How the results depend on the processing

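Which windows qualify depends on the thresholds, the scaling and the window size. Against 45, there were 87 windows with raw counts, 69 with median-of-ratios scaling, 11 at a ratio of 0.3, 127 at a ratio of 0.5, 168 in windows of 500 kb, 11 in windows of 2 Mb, and 18 when every knockout library had to reach 0.4 of the lower control library. Leaving out each library gave 44 to 60. At a minimum −log10 q of 10 there were 33, of which 19 were among the 45. The CFL1 knockout ratio in the 45 windows moved to 0.370 at a minimum −log10 q of 10 and 0.262 with raw counts, and ran from 0.284 to 0.310 without each library. The METTL3 knockout ratio moved to 0.383 at a minimum −log10 q of 5, 0.466 at 10, 0.285 with raw counts and 0.309 with median-of-ratios scaling, and ran from 0.333 to 0.363. The CFL1 to METTL3 knockout ratio stayed under 1 in all 10 alternatives, of which median-of-ratios scaling was added after seeing the data. Control peaks overlapped by the CFL1 knockout, 16.8%, moved to 15.5% at 50% of the shorter peak, 23.2% within 1 kb and 32.3% at a minimum −log10 q of 10, and ran from 14.04% to 17.5% without each library. For the METTL3 knockout, 17.99% moved to 24.8% within 1 kb and 34.8% at a minimum −log10 q of 10, and ran from 15.8% to 18.8%. The mean of the knockout libraries' medians of width, fold and −log10 q stayed above that of the control libraries in the alternatives tried for each, although the width of CFL1 knockout 3 alone, 306 bp, was below that of control 2, 311 bp. Except where the alternative itself changes what is counted, the cause was not tested. No paired analysis was possible because peaks of the knockouts are numbered 3 and 5 by library, which matches no replicate in the labels. Annotation of the windows was not run.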

Other observations

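Chromosome X was outside the rule. Of its 51 windows with a control mean of 20 or more, 3 had a knockout mean of at most 0.4 times the control mean.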
